A study of Mus musculus with 19 samples.

Results

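The complement system is a set of plasma and membrane proteins that mark particles and cells for removal. It is started by the classical pathway, in which C1q binds its target and the proteases C1r and C1s cut C4 and C2, by the lectin pathway, in which mannose-binding lectins, ficolins and collectins carry the proteases MASP-1 and MASP-2, or by the alternative pathway, in which factor B and properdin amplify the deposition of C3. The pathways meet at C3 and end in a pore made of C5, C6, C7, C8 and C9. Hepatocytes are the main source of most complement proteins in plasma, whereas C1q, properdin and ficolin A are made mainly by macrophages, which in the liver include Kupffer cells. The genes described here are 34 complement genes, taken by name from the 31053 genes of the count table. They encode 3 classical recognition chains, 2 classical proteases, 4 components of the C3 convertases, 6 terminal components, 7 soluble regulators, 5 lectin recognition molecules, 2 lectin proteases, 3 receptors and 2 cell surface regulators. By the cell type that is known as their main source, 22 were listed as made by hepatocytes, 7 as made by macrophages and 5 as made by other cells.

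The livers came from male C57BL/6 mice, for which the sample records give an age of 6 to 8 weeks without saying at which time of the study. Vehicle mice (5 libraries) received PBS, and no vector is given for them in the sample records. The other two groups received thioacetamide (TAA), a hepatotoxin used to induce liver fibrosis, for 12 weeks at increasing doses, and at week 10 they were injected with an AAV8 vector carrying either eGFP (AAV-GFP, 7 libraries) or miR34b/c (AAV-miR-34b/c, 7 libraries, from here on the miR-34b/c mice), both under the control of TBG, a promoter that is active in hepatocytes. Livers were collected 4 weeks after the vector. AAV-miR-34b/c is a combination of an AAV for miR-34b and an AAV for miR-34c, so that the effects of the pair of microRNAs cannot be told apart, and in the comparisons with vehicle mice TAA and the vector cannot be told apart either. Both TAA groups carried a vector, and the comparison between them is that of its inserts. RNA was measured by sequencing the 3′ ends of polyadenylated transcripts, and a level is given as CPM, the counts of a gene scaled to a library of 1000000 counts after TMM normalization, which corrects for differences in composition between libraries. Total counts were 2214073 to 4145454 in vehicle, 2463842 to 4383805 in AAV-GFP and 2717503 to 5208405 in miR-34b/c mice. Each comparison was tested with edgeR over all genes with enough counts, with p-values adjusted over all of them by the Benjamini-Hochberg method, and a gene was taken as changed at an adjusted p under 0.05.

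The tissue had the expression of liver. The 12 hepatocyte markers summed to 65416 to 107780 CPM in a library, and each was counted in every group. In bulk RNA, fewer cells of a type and less RNA per cell cannot be told apart. Of the 34 complement genes, 33 had enough counts to be tested in each of the 3 comparisons, and the exception was *C5ar1*, the C5a receptor of neutrophils and macrophages, with 0 to 7 counts in a library. Within groups, 6 pairs of libraries varied by less than 0.2 beyond counting noise (coefficient of variation), which were vehicle 1 and 4, vehicle 3 and 5, AAV-GFP 1 and 2, and AAV-miR-34b/c 1 and 2, 3 and 4, and 5 and 7. With the libraries of close pairs summed, 3 samples of vehicle mice, 6 of AAV-GFP mice and 4 of miR-34b/c mice are left, and for the 34 genes the calls that hold in that setting are given beside the results. The sample records do not say whether close libraries share an animal, and each library is called a mouse here.

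One of the expressed microRNAs, miR-34b-5p, is shown because its seed, bases 2 to 8 and in capitals here, decides which transcripts it pairs with. Its sequence and its position on chr9:51103610-51103632 (minus strand, GRCm38.p6) are from RefSeq.
mmu-miR-34b-5p: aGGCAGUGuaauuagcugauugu
The matching letters CACTGCC stood in the longest annotated 3′ UTR of 5 of the 34 complement genes, which were *C1qa*, *C9*, *Colec10*, *Cd93* and *Serping1*, beside 17.3% of the genes tested. None of these 5 genes was called between miR-34b/c and AAV-GFP mice, and their log2 fold changes were 0.16 (*C1qa*), 0.05 (*C9*), 0.31 (*Colec10*), 0.19 (*Cd93*) and 0.56 (*Serping1*). Of these only *Serping1* was called, as higher, in other fits of this comparison (DESeq2, limma-voom, all 3 groups in one fit, and without AAV-GFP 4).

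The median share of the 34 genes in the normalised counts was higher in miR-34b/c mice than in both other groups. Their share of the normalised counts was 1.67%, 1.69%, 1.59%, 1.70% and 1.51% in the vehicle mice. It was between 1.33% and 2.01% with a median of 1.55% in AAV-GFP mice, and between 1.97% and 2.70% with a median of 2.38% in miR-34b/c mice. All miR-34b/c mice were above all vehicle mice, and 1 of them was below the highest AAV-GFP mouse. Without TMM, as a share of the library's own counts, the medians were 1.67% in vehicle, 1.76% in AAV-GFP and 2.11% in miR-34b/c mice, all miR-34b/c mice (1.93% to 2.48%) were again above all vehicle mice, and 3 of them were below the highest AAV-GFP mouse (2.09%). *C3* was the most counted of them and took 12.6% to 24.1% of the complement counts in AAV-GFP and 23.6% to 32.1% in miR-34b/c mice. The convertase components summed to 2706 to 6159 CPM in AAV-GFP and 6493 to 11207 CPM in miR-34b/c mice, which do not overlap (2826 to 6550 and 6776 to 10300 CPM without TMM), while the terminal components overlapped (2858 to 4424 and 3610 to 4779 CPM). Most of the convertase sum was *C3*. Of its other genes, *C4b* did not overlap between these groups on the TMM scale, whereas *C2* and *Cfb* did.

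**Figure D1:**
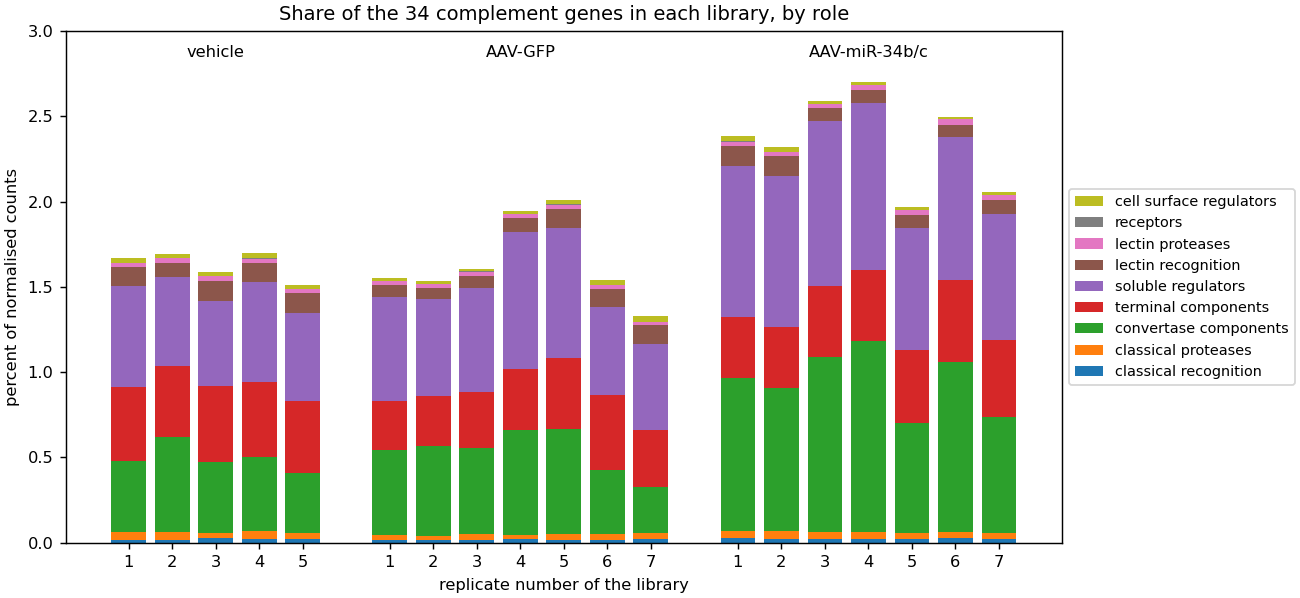
Share of the normalised counts of each library (percent, y axis) that fell on the 34 complement genes, stacked by role, for 7 AAV-miR-34b/c, 7 AAV-GFP and 5 vehicle libraries. The AAV-miR-34b/c libraries reach 1.97% to 2.70% and the vehicle libraries 1.51% to 1.70%, and the soluble regulators, the convertase components and the terminal components make up most of each bar.

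To see how complement genes differ with miR-34b/c in fibrotic livers, miR-34b/c mice were compared to AAV-GFP mice. Transcripts of *C3*, *C1qb*, *Hc* and *C8a* were increased, 4 of the 33 genes tested, and none was decreased by edgeR, where 3.36% of all 9252 genes were called (1.95% higher and 1.42% lower). At an unadjusted p under 0.05 there were 11 complement genes higher and 2 lower, beside 1414 of all 9252 genes in either direction. DESeq2 and limma-voom each called 8 higher and 0 lower, where they called 572 and 813 genes in all (3.43% and 8.79% of those tested). *C3* and *C1qb* were close to double their level, and *Hc* and *C8a* were raised by 1.60- and 1.70-fold. The log2 fold change was above 0 for 26 and below 0 for 7 of the 33 genes, with a median of 0.23, beside a median of -0.01 over all genes. Normalization by library size only moved the median of all genes to -0.20 and the split of the calls to 2 higher (*C3* and *C1qb*) and 2 lower (*C8g* and *Mbl2*), where 119 of all genes were higher and 505 lower (6.74% called), against 180 higher and 131 lower with TMM. The groups did not overlap in CPM for 4 complement genes, *C1qb*, *C3*, *C4b* and *Hc*, all higher with miR-34b/c, beside 1.37% of all genes. Without TMM all 4 of these overlapped, and 0 complement genes were free of overlap, beside 2.23% of all genes. With each library left out in turn, 4 to 6 complement genes were called, and the same 4 were among them each time. With close libraries summed, 0 complement genes were called by edgeR, where 0.832% of all 10454 genes were called. The edgeR adjusted p were then 0.077 for *C1qb*, 0.12 for *C3* and *C8a* and 0.13 for *Hc*. At an unadjusted p under 0.05 there were 9 complement genes in this setting, for which the count over all genes is not given here.

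*C3* encodes the protein on which all 3 pathways act. Its level was 2571, 4110, 2647, 2662 and 2150 CPM in the vehicle mice. It was 1671, 3703 and 4547 CPM (lowest, median, highest) in AAV-GFP and 4641, 6796 and 8689 CPM in miR-34b/c mice. On the TMM scale every miR-34b/c mouse was above every mouse of the other groups, whereas vehicle and AAV-GFP mice overlapped. Compared to AAV-GFP, *C3* was 1.96-fold higher with miR-34b/c (log2 fold change 0.97 ± 0.22 SE, edgeR adjusted p = 0.015). A two-sided exact permutation test of its log2 CPM gave p = 0.000583, the smallest that 7 against 7 mice allow. Compared to vehicle, it was 2.38-fold higher (1.25 ± 0.20, edgeR adjusted p = 0.00093), also with close libraries summed (adjusted p = 0.0496). In AAV-GFP mice *C3* was not called against vehicle (0.27 ± 0.24, edgeR adjusted p = 0.46).

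The other convertase components are C4, C2 and factor B, whose genes lie on chromosome 17. *C4b* had 360 to 845 CPM in AAV-GFP and 868 to 1536 CPM in miR-34b/c mice and did not overlap between them on the TMM scale, but it was not called by edgeR (0.74 ± 0.22, adjusted p = 0.066). It was called, as higher, by DESeq2, by limma-voom and with all 3 groups in one fit. Compared to vehicle, *C4b* was 1.65-fold higher with miR-34b/c (0.72 ± 0.22, edgeR adjusted p = 0.026), and 6 of 7 miR-34b/c mice were above all vehicle mice. Reads of *C4b* can be shared with the related gene *C4a*, which was not analysed here. *C2* (chr17:34862604-34898265) and its neighbour *Cfb* (chr17:34856374-34862518) were not called in any of the 3 comparisons. *C2* varied little, from 61.5 to 99.4 CPM over all 19 libraries, and *Cfb* was 0.42 ± 0.16 against AAV-GFP (edgeR adjusted p = 0.19) and 0.38 ± 0.17 against vehicle (adjusted p = 0.10).

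Among the terminal components, *Hc* and *C8a* were increased with miR-34b/c, but the other chains of C8 were not called in this comparison. *Hc* encodes C5, whose cleavage starts the assembly of the pore and releases the chemoattractant C5a. It had 889, 979.7, 597, 843 and 591 CPM in the vehicle mice, 386, 508 and 692.5 CPM (lowest, median, highest) in AAV-GFP mice and 720.0, 808 and 975 CPM in miR-34b/c mice. It was lower in AAV-GFP mice than in vehicle mice (-0.58 ± 0.18, edgeR adjusted p = 0.040) and higher with miR-34b/c than with AAV-GFP (0.68 ± 0.14, adjusted p = 0.011, with no overlap on the TMM scale), 2 comparisons that share the AAV-GFP mice. Against vehicle, miR-34b/c mice were at 0.11 ± 0.16 (edgeR adjusted p = 0.65). The call with miR-34b/c was lost under normalization by library size only (0.49, adjusted p = 0.056), and the call against vehicle was lost in 6 of 12 fits that left out 1 library.

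*C8a* encodes the alpha chain of C8, which inserts into the membrane. It had 399, 629, 510.0, 441 and 425 CPM in the vehicle mice, 309, 445 and 583 CPM (lowest, median, highest) in AAV-GFP and 490.4, 862 and 965 CPM in miR-34b/c mice. Of the miR-34b/c mice, 5 were above all mice of the other groups, and the other two, libraries 1 and 2, lay within their range at 552 and 490.4 CPM. *C8a* was 1.70-fold higher than with AAV-GFP (0.77 ± 0.17, edgeR adjusted p = 0.016) and 1.62-fold higher than with vehicle (0.70 ± 0.19, adjusted p = 0.015). Under normalization by library size only both calls were lost (adjusted p = 0.070 and 0.054). Its neighbour *C8b*, the beta chain, was at 978 to 1735 CPM in vehicle, 415 to 1421 CPM in AAV-GFP and 628 to 1221 CPM in miR-34b/c mice. It was lower than in vehicle mice in both TAA groups (AAV-GFP -0.78 ± 0.24, edgeR adjusted p = 0.041; AAV-miR-34b/c -0.60 ± 0.18, adjusted p = 0.029). *C8g*, the gamma chain, a lipocalin encoded on chromosome 2, was at 517 to 649.6 CPM in vehicle and 291 to 449 CPM in miR-34b/c mice, with no overlap (-0.68 ± 0.14, edgeR adjusted p = 0.0040). *C6* and *C9*, which join the pore before and after C8, were not called in any of the 3 comparisons, with fold changes between -0.07 and 0.26 on the log2 scale.

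Since the chains of C8 are made as parts of 1 protein, their counts were also compared within each mouse, a comparison that does not depend on normalization. These ratios, and those of the C1q chains below, were chosen after the levels had been seen. Their p-values are adjusted over 18 tests, each ratio in 3 comparisons. The adjustment does not cover that choice, and the ratios use the same counts as the calls, so they are no independent support for them. The ratio of *C8a* to *C8g* counts was 0.71 to 1.09 in vehicle, 0.58 to 1.70 in AAV-GFP and 1.09 to 2.78 in miR-34b/c mice. In log2 units it was higher with miR-34b/c by 1.11 than with AAV-GFP (two-sided exact permutation test, p = 0.00699, adjusted 0.025) and by 1.37 than with vehicle (p = 0.00253, adjusted 0.015). The ratio of *C8a* to *C8b* had a median of 0.31 in vehicle and of 0.76 in miR-34b/c mice (log2 difference 1.29, exact permutation p = 0.00253, adjusted 0.015), and 0.64 in AAV-GFP mice, between the other two. The differences of the AAV-GFP mice from both other groups in this ratio did not pass the threshold (adjusted permutation p = 0.099 against vehicle and 0.18 against AAV-miR-34b/c, exact test). With close libraries summed, the differences from vehicle had an unadjusted exact permutation p of 0.057, where the smallest possible is 0.029.

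The stretches of 250 bases before the start of 5 genes are shown, since *C3*, *Hc*, *C8a* and *C1qb* were the genes called with miR-34b/c and *C8b* is the neighbour that was not. They are from RefSeq (GRCm38.p6) and lie on chr17:57228137-57228386 (minus strand, *C3*), chr2:35061413-35061662 (minus, *Hc*), chr4:104876399-104876648 (minus, *C8a*), chr4:104766067-104766316 (plus, *C8b*) and chr4:136886201-136886450 (minus, *C1qb*). The start of *Hc* in RefSeq lies inside the gene as GENCODE annotates it (to chr2:35061438), so the last bases of its stretch are within the gene there. Capitals mark a match to a motif listed after them.
C3 promoter: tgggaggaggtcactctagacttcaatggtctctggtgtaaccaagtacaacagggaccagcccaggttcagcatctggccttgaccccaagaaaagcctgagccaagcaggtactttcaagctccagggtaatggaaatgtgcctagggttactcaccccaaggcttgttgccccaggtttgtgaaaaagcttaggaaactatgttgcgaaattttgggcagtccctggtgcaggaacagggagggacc
Hc promoter: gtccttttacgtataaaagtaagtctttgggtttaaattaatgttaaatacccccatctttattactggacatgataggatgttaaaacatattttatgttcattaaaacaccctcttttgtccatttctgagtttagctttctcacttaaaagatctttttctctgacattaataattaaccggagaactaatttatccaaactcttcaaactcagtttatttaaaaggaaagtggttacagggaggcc
C8a promoter: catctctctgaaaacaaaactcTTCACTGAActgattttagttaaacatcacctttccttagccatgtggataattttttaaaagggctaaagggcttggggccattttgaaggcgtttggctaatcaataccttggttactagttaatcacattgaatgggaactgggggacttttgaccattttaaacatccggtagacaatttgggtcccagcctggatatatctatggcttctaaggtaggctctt
C8b promoter: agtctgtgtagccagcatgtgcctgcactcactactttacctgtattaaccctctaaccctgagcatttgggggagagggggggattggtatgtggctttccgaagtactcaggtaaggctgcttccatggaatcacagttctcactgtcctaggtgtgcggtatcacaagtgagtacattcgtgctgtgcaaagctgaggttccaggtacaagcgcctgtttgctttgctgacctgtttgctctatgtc
C1qb promoter: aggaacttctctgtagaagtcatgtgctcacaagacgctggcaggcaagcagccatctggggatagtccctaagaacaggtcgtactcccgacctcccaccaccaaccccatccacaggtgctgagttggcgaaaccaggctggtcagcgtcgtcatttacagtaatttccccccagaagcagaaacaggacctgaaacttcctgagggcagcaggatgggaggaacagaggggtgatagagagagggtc
Letters of 4 factors of the acute phase and interferon responses were searched on both strands, TTCNNNGAA for STAT, TTGNNCAA for C/EBP, GGNNTTTCC for NF-kB and GAAANNGAA for IRF. Of these 5 stretches, only that of *C8a* held one, the STAT letters, which start 228 bases before the start of the gene. Among the 24 complement genes with a promoter in the table, the STAT letters were in 3 (*C8a*, *Masp2* and *Colec11*; 7.18% of all 27025 promoters), the C/EBP letters in 0 (5.74%), the NF-kB letters in 1 (*C3ar1*; 4.84%) and the IRF letters in 3 (*Cd59a*, *C5ar1* and *Colec11*; 7.16%). A match is a description of the letters in this window, and binding was not measured.

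C1q is built from A, B and C chains, whose genes stand side by side on the minus strand of chromosome 4 (*C1qb* chr4:136880129-136886187, *C1qc* chr4:136889804-136893065, *C1qa* chr4:136895917-136898803). *C1qb* was the only one called. Its level was 38.8, 55.6, 97.8, 75.5 and 62.0 CPM in the vehicle mice, 27.8, 51.9 and 61.5 CPM (lowest, median, highest) in AAV-GFP and 73.0, 86.4 and 117 CPM in miR-34b/c mice. On the TMM scale all miR-34b/c mice were above all AAV-GFP mice, by 1.92-fold (0.94 ± 0.19, edgeR adjusted p = 0.0086; two-sided exact permutation p = 0.000583), whereas the vehicle mice overlapped with both TAA groups. *C1qa* was at 66.1 to 114 CPM in AAV-GFP and 73.4 to 137 CPM in miR-34b/c mice (0.16 ± 0.15, edgeR adjusted p = 0.68). *C1qc* was at 32.2 to 56.3 and 45.1 to 68.7 CPM (0.31 ± 0.16, edgeR adjusted p = 0.37). Against vehicle, none of the chains was called by edgeR in either TAA group (*C1qb* -0.49 ± 0.24 with AAV-GFP, adjusted p = 0.17, and 0.46 ± 0.20 with AAV-miR-34b/c, adjusted p = 0.11). At an unadjusted p under 0.05 there were 0 and 1 of them, beside 2828 of 9522 and 3427 of 9290 genes in all.

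Within a mouse, *C1qb* was higher relative to both other chains with miR-34b/c than with AAV-GFP. The ratio of *C1qb* to *C1qa* counts had a median of 0.54 in AAV-GFP and 0.94 in miR-34b/c mice (log2 difference 0.83, two-sided exact permutation p = 0.00233, adjusted 0.015). The ratio of *C1qb* to *C1qc* had medians of 1.07 and 1.81 (log2 difference 0.66, exact permutation p = 0.00583, adjusted 0.025), and with close libraries summed the unadjusted exact permutation p were 0.033 and 0.0095. In vehicle mice the medians were 0.75 and 1.25, and the differences of miR-34b/c mice from vehicle did not pass the threshold (0.31 and 0.47 in log2 units, adjusted p = 0.18 and 0.20, exact permutation test). The ratio of *C1qa* to *C1qc* was at 1.61 to 2.52 in AAV-GFP and 1.38 to 2.92 in miR-34b/c mice (log2 difference -0.17, adjusted p = 0.41, exact permutation test). In AAV-GFP mice, libraries 1 and 2, which form a close pair, had the lowest *C1qb* levels (27.8 and 27.9 CPM) and the lowest ratios of *C1qb* to *C1qa*, down to 0.34. Leaving out any 1 library kept both ratios of *C1qb* at an unadjusted exact permutation p of at most 0.012.

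**Figure D2:**
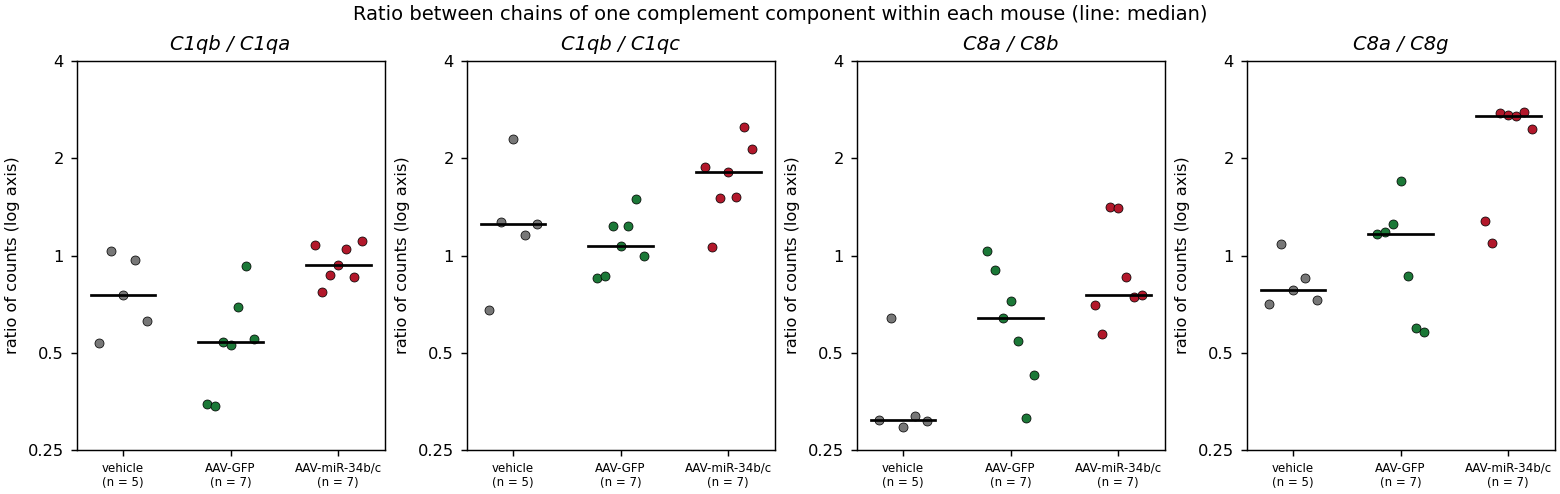
Ratio of the counts of 2 chains of one component within each mouse (y axis, log scale), for the C1q chains and the C8 chains in 7 AAV-miR-34b/c, 7 AAV-GFP and 5 vehicle libraries (points; the line is the median). The *C8a* to *C8g* ratio is at least 1.09 in all AAV-miR-34b/c libraries and at most 1.09 in all vehicle libraries, and 5 of the AAV-miR-34b/c libraries sit apart from libraries 1 and 2.

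Of the proteases that C1q carries, *C1ra* was called in 1 comparison. *C1ra* was at 206 to 283 CPM in vehicle, 142 to 212 CPM in AAV-GFP and 181 to 253 CPM in miR-34b/c mice. It was lower in AAV-GFP mice than in vehicle mice (-0.46 ± 0.15, edgeR adjusted p = 0.0489), a call that held in 2 of 12 fits that left out 1 library. *C1s1* was not called in any of the 3 comparisons. Reads of *C1ra* and *C1s1* can be shared with *C1rb* and *C1s2*, related genes in the same cluster of chromosome 6. *Serping1*, the C1 inhibitor that removes C1r and C1s from C1q, was 1.45-fold higher with miR-34b/c than with vehicle (0.54 ± 0.16, edgeR adjusted p = 0.027) and was at 0.56 ± 0.16 against AAV-GFP (adjusted p = 0.059).

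**Figure D3:**
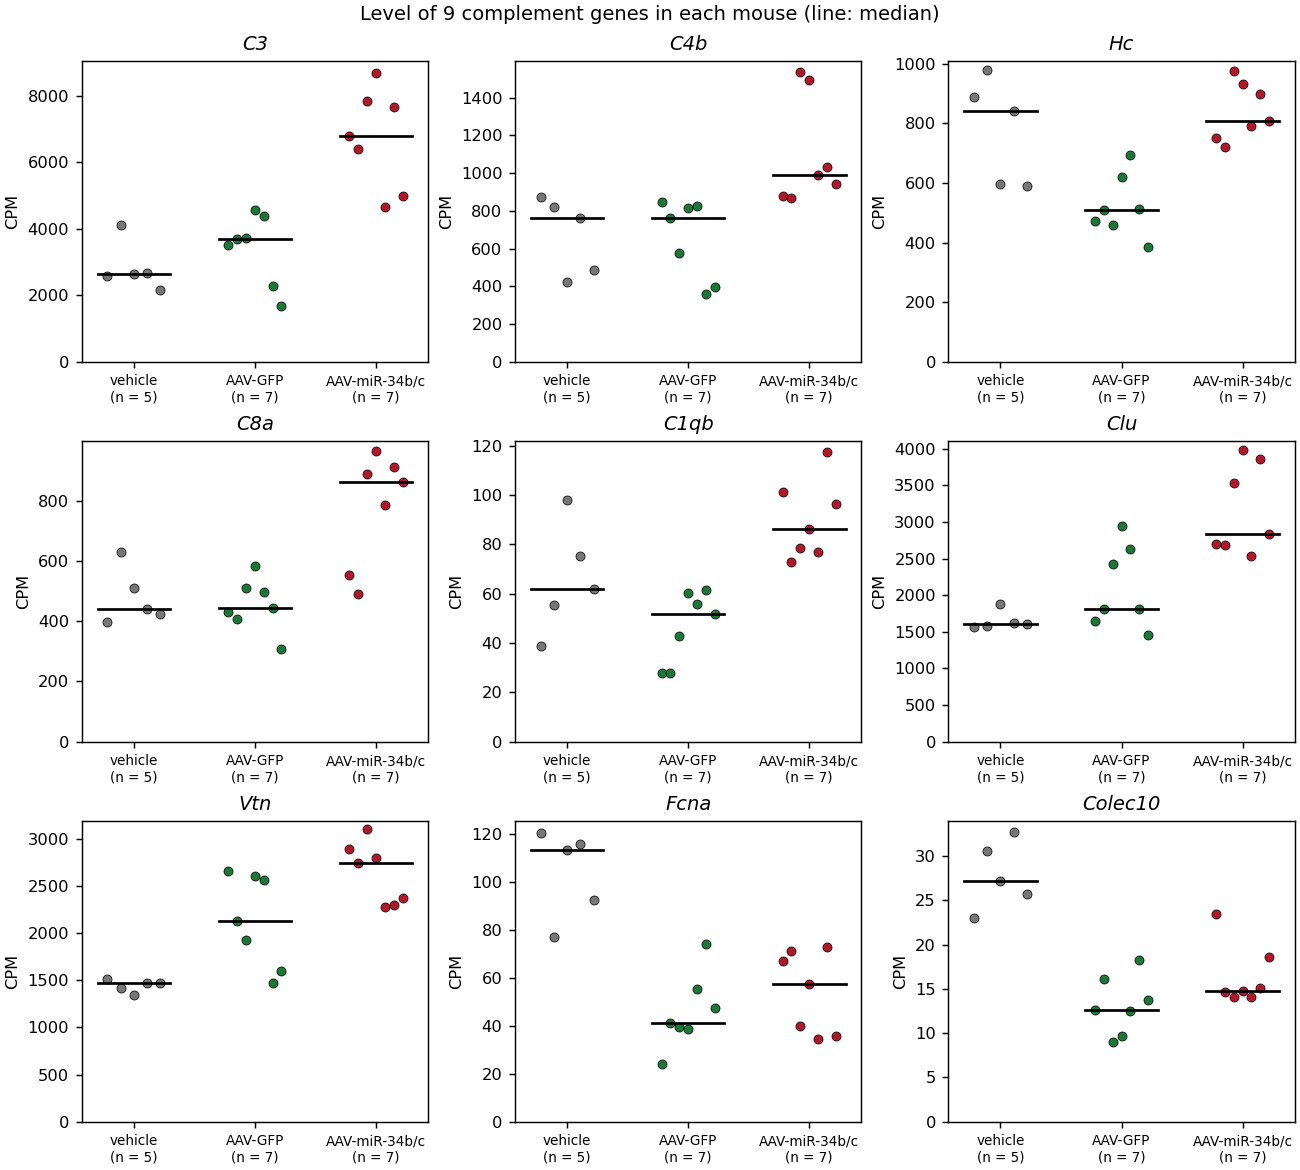
CPM of 9 complement genes in each mouse (y axis from 0; points are the 7 AAV-miR-34b/c, 7 AAV-GFP and 5 vehicle libraries, the line is the median). *C3*, *C1qb*, *C4b* and *Hc* do not overlap between the TAA groups on this TMM scale, but do without TMM, and *Fcna* and *Colec10* do not overlap between vehicle and AAV-GFP mice.

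To see which complement genes differ in fibrotic livers without the vector-delivered microRNAs, AAV-GFP mice were compared to vehicle mice. Of the 33 genes tested, 8 were called, 7 of them lower (*Fcna*, *Colec10*, *C8b*, *Cfp*, *C4bp*, *Hc* and *C1ra*) and 1 higher (*Vtn*), beside 12.7% of all 9522 genes (7.54% higher and 5.19% lower). The median log2 fold change was -0.15 over the complement genes and -0.01 over all genes. In this comparison 6 of 22 acute phase genes were also called (1 higher, 5 lower, median -0.51), and 4 of 10 stellate cell markers (3 higher, 1 lower). Only *Fcna* and *Colec10* were called in each of the 12 fits that left out 1 library and with close libraries summed. In the summed setting 2.26% of all genes were called. *Fcna* and *Colec10* were also the 2 complement genes whose groups did not overlap, beside 4.79% of all genes. The number of complement genes called fell to 2 without vehicle 1, vehicle 4, AAV-GFP 1 or AAV-GFP 2, to 3 without AAV-GFP 3, to 4 without vehicle 2, vehicle 3 or AAV-GFP 4, and to 5 without vehicle 5. The 6 other calls had edgeR adjusted p of 0.035 to 0.049 and were each lost in at least 6 of the 12 fits.

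*Fcna* encodes ficolin A, a lectin of Kupffer cells and other macrophages that binds sugars and acetylated groups. Its level was 120.4, 77.0, 113, 116 and 92.5 CPM in the vehicle mice, 24.2, 41.0 and 73.9 CPM (lowest, median, highest) in AAV-GFP and 34.6, 57.3 and 72.6 CPM in miR-34b/c mice. All mice of both TAA groups were below all vehicle mice. It fell by 1.18 on the log2 scale with AAV-GFP (SE 0.21, edgeR adjusted p = 0.0016) and by 0.94 with AAV-miR-34b/c (SE 0.21, adjusted p = 0.0058) against vehicle, and the TAA groups were at 0.23 ± 0.23 (adjusted p = 0.71). *Colec10*, a collectin that can carry MASPs, was at 23.0, 30.6, 27.1, 32.7 and 25.7 CPM in the vehicle mice, and at 9.01 to 18.2 CPM in AAV-GFP and 14.1 to 23.4 CPM in miR-34b/c mice. It fell by 1.08 on the log2 scale with AAV-GFP (SE 0.20, edgeR adjusted p = 0.0022) and by 0.76 with AAV-miR-34b/c (SE 0.18, adjusted p = 0.0089).

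The other lectin recognition genes, *Mbl1*, *Mbl2* and *Colec11*, and the lectin proteases *Masp1* and *Masp2* were not called in any of the 3 comparisons. *Mbl2*, which encodes mannose-binding lectin C, was nevertheless below all vehicle mice (403 to 491 CPM) in all miR-34b/c mice (248 to 393 CPM), with -0.40 ± 0.16 (edgeR adjusted p = 0.070). *Masp1* was at 33.3 to 119 CPM and *Masp2*, which cuts C4 and C2, at 147 to 214 CPM over all libraries.

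*Cfp* encodes properdin, which stabilizes the alternative convertase and is made by macrophages and neutrophils. It was at 22.5 to 43.1 CPM in vehicle, 12.6 to 26.3 CPM in AAV-GFP and 20.7 to 33.7 CPM in miR-34b/c mice, and was lower with AAV-GFP than with vehicle (-0.64 ± 0.21, edgeR adjusted p = 0.0491). Beside these macrophage-made genes, 6 of 14 macrophage markers tested were called in the same comparison, beside 12.7% of all genes, 5 lower (*Adgre1*, *Clec4f*, *Timd4*, *Cd5l* and *Cd163*, of which *Clec4f* and *Timd4* mark Kupffer cells) and 1 higher (*Cx3cr1*). The 15 markers listed summed to 449.9 to 852 CPM in vehicle and 385 to 633 CPM in AAV-GFP mice, and none was at 0 throughout a group. The part of these cells in the values of *Fcna* and *Cfp* was not tested. *C4bp*, the C4b-binding protein of hepatocytes, was at 599.5, 382, 347, 599 and 365 CPM in the vehicle and at 237.5 to 373 CPM in AAV-GFP mice, of which 5 were below all vehicle mice (-0.60 ± 0.18, edgeR adjusted p = 0.035). The highest vehicle libraries, the close pair 1 and 4, also had the highest vehicle sums of the acute phase genes (78392 and 78461 CPM against 33631 to 39483 CPM) and of the neutrophil genes (83.0 and 80.9 CPM against 16.9 to 30.3 CPM), whose part in *C4bp* was not tested. Without vehicle 1 or vehicle 4 *C4bp* was at -0.47 and -0.48 and not called (edgeR adjusted p = 0.13 and 0.14). It was also not called without AAV-GFP 1, 2, 3 or 4 (-0.54 to -0.59, edgeR adjusted p = 0.057 to 0.077).

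The members were also counted by their known source. In AAV-GFP mice against vehicle, 5 of 22 hepatocyte-made genes (1 higher, 4 lower) and 2 of 6 tested macrophage-made genes (both lower) were called, beside 12.7% of all genes, with median log2 fold changes of -0.12 and -0.40. Against AAV-GFP, miR-34b/c gave 3 of 22 and 1 of 6, all higher, beside 3.36% of all genes, with medians of 0.33 and 0.27. Against vehicle, miR-34b/c gave 9 of 22 (6 higher, 3 lower) and 1 of 6 (lower), beside 21.9% of all genes, with medians of 0.05 and 0.09. The macrophage-made genes summed to 264 to 433 CPM in vehicle, 189.9 to 308 CPM in AAV-GFP and 270.5 to 420.4 CPM in miR-34b/c mice. Per 1000 CPM of hepatocyte-made complement transcripts there were 16.1 to 28.5 CPM of macrophage-made ones in vehicle mice, 12.6 to 21.3 in AAV-GFP and 11.5 to 17.2 in miR-34b/c mice. These are counts and levels, and the difference between the classes was not tested.

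Among the soluble regulators, *Vtn* and *Clu* had the highest medians in miR-34b/c, intermediate ones in AAV-GFP and the lowest ones in vehicle mice. *Vtn* encodes vitronectin, which keeps the terminal complex out of membranes and is also a matrix adhesion protein. Its level was 1515, 1420.0, 1342, 1474 and 1475 CPM in the vehicle mice, 1466, 2132 and 2654 CPM (lowest, median, highest) in AAV-GFP and 2275, 2738 and 3098 CPM in miR-34b/c mice. It was higher than in vehicle mice with AAV-GFP (0.57 ± 0.18, edgeR adjusted p = 0.048, 6 of 7 mice above all vehicle mice) and with AAV-miR-34b/c (0.87 ± 0.14, adjusted p = 0.00086, 7 of 7 mice). *Clu* encodes clusterin, a chaperone that also binds the terminal complex. It was at 1564, 1580.0, 1883, 1619 and 1613 CPM in the vehicle mice, 1464, 1815 and 2944 CPM in AAV-GFP and 2531, 2835 and 3980.0 CPM in miR-34b/c mice. The miR-34b/c mice were all above the vehicle mice (0.94 ± 0.16, edgeR adjusted p = 0.0010), also with close libraries summed (adjusted p = 0.043), while AAV-GFP mice overlapped with both other groups (0.35 ± 0.19 against vehicle, adjusted p = 0.22; 0.58 ± 0.18 for AAV-miR-34b/c against AAV-GFP, adjusted p = 0.083).

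Compared to vehicle, miR-34b/c mice had 12 of 33 complement genes called, 7 higher (*C3*, *Cd93*, *Clu*, *Vtn*, *C4b*, *C8a* and *Serping1*) and 5 lower (*Cfhr2*, *Fcna*, *Colec10*, *C8g* and *C8b*), beside 21.9% of all 9290 genes (12.2% higher and 9.75% lower). The median log2 fold change was 0.02 over the complement genes, as over all genes. With close libraries summed, 3 of these calls held (*C3*, *Cd93* and *Clu*), where 3.12% of all genes were called. With each library left out in turn, *Cfhr2* was lost in 9, *C8b* in 6 and *C4b* and *Serping1* each in 4 of 12 fits, and the other 8 calls held in all 12. The number called fell to 8 without vehicle 5, AAV-miR-34b/c 3 or AAV-miR-34b/c 4. Normalization by library size only moved the median of all genes to -0.13 and gave 4 higher and 6 lower complement genes, where 730 of all genes were higher and 1616 lower (25.3% called), against 1131 higher and 906 lower with TMM. The groups did not overlap for 7 complement genes, 4 higher (*C3*, *Cd93*, *Clu* and *Vtn*) and 3 lower (*C8g*, *Mbl2* and *Fcna*), beside 7.92% of all genes. *Cd93*, a lectin-like receptor of endothelial and myeloid cells, was among the low transcripts, with 4.89 to 9.95 CPM in vehicle and 12.7 to 18.2 CPM in miR-34b/c mice (36 to 67 counts in a library). It was 2.11-fold higher (1.08 ± 0.23, edgeR adjusted p = 0.0042). In AAV-GFP mice it was at 6.18 to 20.1 CPM and not called (0.88 ± 0.30, adjusted p = 0.056).

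**Figure D4:**
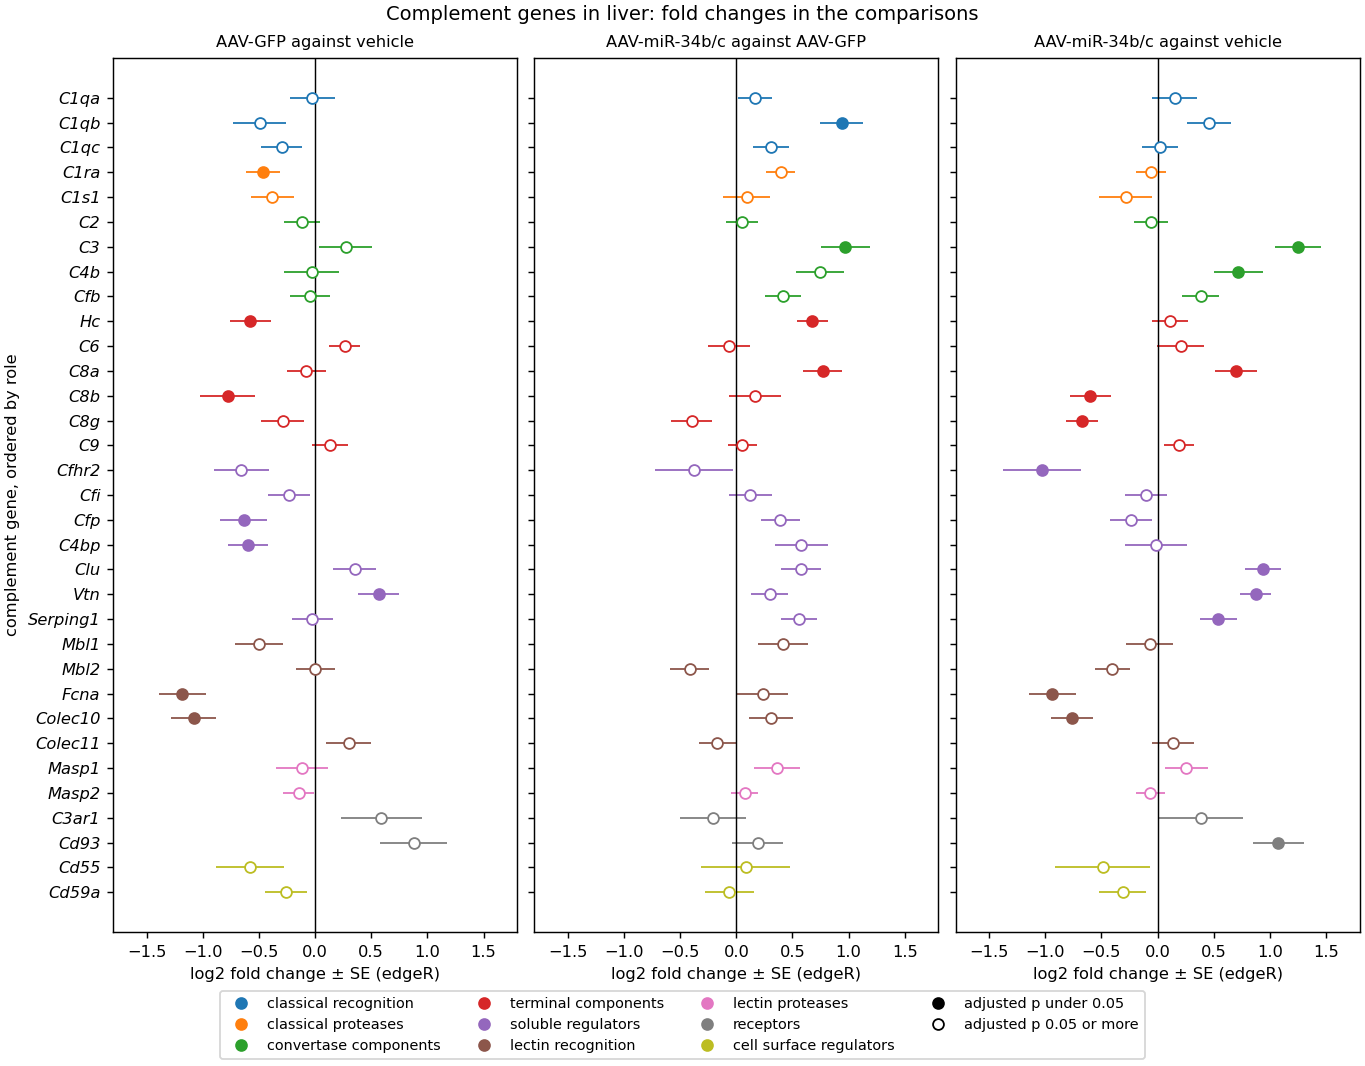
Log2 fold change of 33 complement genes (x axis; the bar is 1 SE of the edgeR fit) in the 3 comparisons, coloured by role, with filled points where the adjusted p is under 0.05. With miR-34b/c against AAV-GFP 26 of 33 points lie right of 0, and *Fcna* and *Colec10* lie left of 0 in both comparisons with vehicle.

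Libraries 1 and 2 of the miR-34b/c mice, a close pair, stood apart from the other 5 for several regulators and terminal components. They also had the highest summed levels of the neutrophil genes, 1997 and 1996 CPM against 67.5 to 446 CPM in the other 5, and of the acute phase genes, 204920 and 207310 CPM against 57500 to 138180 CPM. Their hepatocyte markers summed to 107780 and 100840 CPM against 65416 to 85138 CPM, and their TMM factors, 0.840 and 0.834, were the lowest of the 19 libraries. The part of these in the values below was not tested. *Cfhr2*, a soluble regulator, was at 229 and 213 CPM in these libraries and at 49.8 to 76.8 CPM in the other 5. *C4bp*, the fluid-phase inhibitor of the classical convertase, was at 747 and 773 CPM against 274.5 to 382 CPM, and *Mbl1* at 651 and 682 CPM against 346 to 425 CPM. *C6* went the other way, with 169.9 and 189 CPM against 304.5 to 440.3 CPM. For *Cfhr2* these 2 libraries lay in the range of the vehicle mice (155 to 310.3 CPM), where the other 5 were below all of them. The call of *Cfhr2* against vehicle was -1.03 ± 0.35 with all libraries (edgeR adjusted p = 0.044) and -1.76 without these 2 (adjusted p = 5.1e-06), and with 1 library left out it held in 3 of 12 fits, with adjusted p up to 0.12. Against AAV-GFP it was not called with all libraries (-0.38 ± 0.35, adjusted p = 0.68), and was -1.11 without them (edgeR adjusted p = 0.013). Without them, a setting chosen after seeing the data, 8 complement genes were called against AAV-GFP (*C1qb*, *C1ra*, *C3*, *C4b*, *Hc*, *C8a* and *Clu* higher, *Cfhr2* lower) and 18 against vehicle, beside 7.54% and 42.6% of all genes in this setting. *C6* was then at 0.43 against vehicle (edgeR adjusted p = 0.015) and *C4bp* at -0.48 (adjusted p = 0.036), whereas with all libraries they were at 0.21 and -0.01 and not called.

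**Figure D5:**
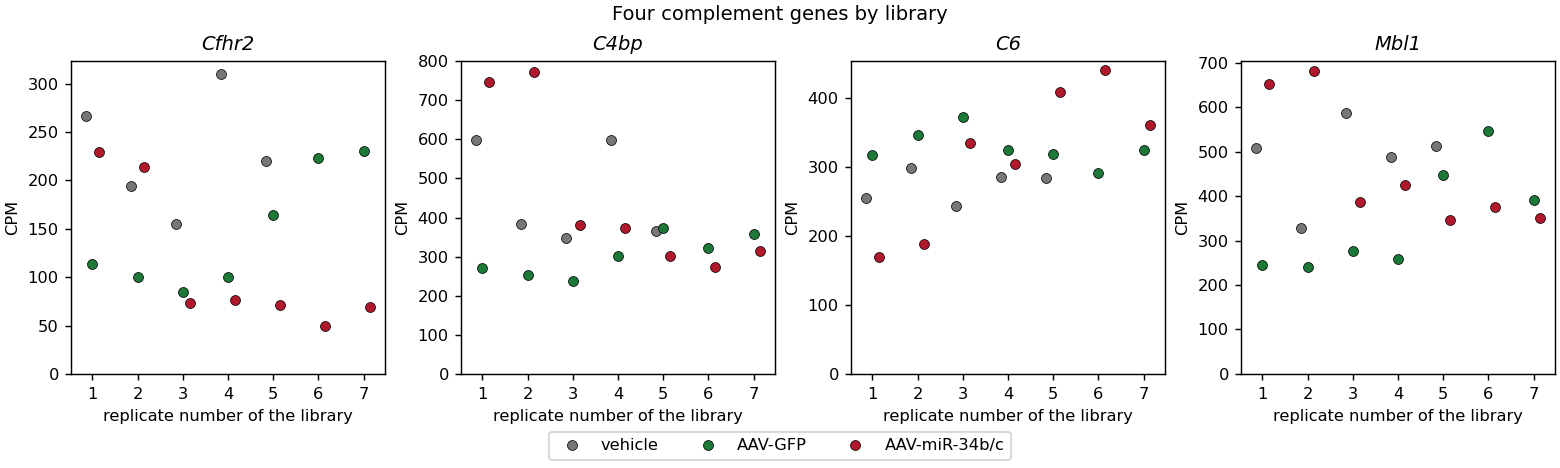
CPM of *Cfhr2*, *C4bp*, *C6* and *Mbl1* (y axis from 0) in each library, placed by its replicate number, which carries no order. AAV-miR-34b/c libraries 1 and 2 are at 229 and 213 CPM for *Cfhr2*, where the other 5 are at 49.8 to 76.8 CPM.

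The remaining members were not called in any of the 3 comparisons. These were the regulator *Cfi*, which encodes the protease that inactivates C3b and C4b (167 to 416 CPM), the C3a receptor *C3ar1* (1.21 to 12.6 CPM), and the membrane regulators *Cd55* (2.12 to 17.0 CPM) and *Cd59a* (115 to 289 CPM), whose reads can be shared with *Cd55b* and *Cd59b*. With these, the 33 tested genes comprised 17 that were called by edgeR in at least 1 of the 3 comparisons and 16 that were not.

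Of 22 other complement and complement-related genes in the table, 12, 10 and 11 had enough counts when AAV-GFP was set against vehicle, miR-34b/c against AAV-GFP and miR-34b/c against vehicle, where 12.7%, 3.36% and 21.9% of all genes were called. With AAV-GFP against vehicle 2 were lower and none higher, which were *Vsig4*, the C3b receptor of Kupffer cells (-0.79 ± 0.19, edgeR adjusted p = 0.011), and *Susd4*, an inhibitor of complement on cells. *Susd4* was at 27.4 to 35.8 CPM in vehicle mice, at 0 to 3.14 CPM in AAV-GFP and at 1.19 to 10.2 CPM in miR-34b/c mice. With miR-34b/c against AAV-GFP none of the 10 was called by edgeR. At an unadjusted p under 0.05 there were 5 of them, beside 1414 of all 9252 genes. DESeq2 and limma-voom each called 4 of these other complement genes, beside 3.43% and 8.79% of all genes they tested. Against vehicle, miR-34b/c mice had 4 higher (*Cpn1*, *Calr*, *C1rl* and *Itgam*) and 1 lower (*Susd4*). *Itgam* had 2 to 10 counts in vehicle and 7 to 25 in miR-34b/c libraries. *Susd4* had 75 to 136 counts in vehicle, 0 to 8 in AAV-GFP and 3 to 29 in miR-34b/c libraries. Each passed the count filter mainly through the group where it was high, so the direction of these calls was partly fixed by the filter. With close libraries summed, 1 of the 22 genes was called in each of the comparisons with vehicle and 0 in the other. Of all genes, 2.26% (AAV-GFP against vehicle), 3.12% (miR-34b/c against vehicle) and 0.832% (miR-34b/c against AAV-GFP) were called in that setting. *C7*, the pore component missing from the 34 genes, had 0 to 5 counts in a library, and *Cfd*, the factor D of adipose tissue, 0 to 6.

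Acute phase and neutrophil genes were also called in the comparison of miR-34b/c with AAV-GFP, in which 3.36% of all genes were called. Of 22 acute phase genes tested, 19 were higher with miR-34b/c than with AAV-GFP, with a median log2 fold change of 1.84, and their summed level was 26211 to 64015 CPM in AAV-GFP and 57500 to 207310 CPM in miR-34b/c mice. None of the 34 complement genes is on that list. All 3 of 9 neutrophil genes with enough counts were higher (*S100a8*, *S100a9* and *Retnlg*), and the 9 summed to 14.7 to 75.8 and 67.5 to 1997 CPM. With AAV-GFP against vehicle only 2 of the 9 had enough counts. Further neutrophil genes passed the count filter through the miR-34b/c libraries, where they were high, so that all tested were higher was partly fixed by the filter. Of the hepatocyte markers 1 of 12 was called, *Ambp*, as higher, and of the macrophage markers 1 of 13, *Cd5l*, as higher. The macrophage markers summed to 385 to 633 CPM in AAV-GFP and 552 to 770.3 CPM in miR-34b/c mice. Of 9 endothelial markers 1 was higher (*Lyve1*), of 10 stellate cell markers 2 were lower (*Col1a1* and *Col3a1*), and T and B cell markers summed to 3.10 to 10.7 CPM over all libraries. None of the T and B cell markers had enough counts for this comparison. Against vehicle, 21.9% of all genes were called, and 15 of 22 acute phase genes (median log2 fold change 1.48) were higher with miR-34b/c. The 4 of 9 neutrophil genes with enough counts were also higher, with the same limit from the filter. Of the markers, 5 of 14 for macrophages (2 higher, 3 lower) and 2 of 9 for endothelial cells (1 higher, 1 lower) were called. So were 4 of 12 hepatocyte markers (*Hnf4a*, *Fah* and *Ambp* higher, *Cps1* lower). Of 9 stellate cell markers tested against vehicle 1 was called, *Ecm1*, as lower, with a median log2 fold change of -0.32 over the 9. The part of these genes and cells in the complement values was not tested.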

How the data were processed

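Liver RNA of 19 libraries was sequenced at the 3′ end with a QuantSeq kit. The values are counts per gene that the authors deposited in a single table without normalization. Per the study methods, reads were trimmed, aligned and counted by gene, and the submitters' processing notes name STAR and mm10. How the counter was set, its annotation, whether it used strand and whether molecular identifiers were collapsed are not given in the sources used here. PCR duplicates may therefore be included, and errors from counts alone cover counting error only. Related genes (*C4b* and *C4a*, *C1ra* and *C1rb*, *C1s1* and *C1s2*, *Cd55* and *Cd55b*, *Cd59a* and *Cd59b*), overlapping and antisense genes can share reads. How alike the sequences of these related genes are was not computed. Library totals of 2214073 to 5208405 counts leave genes under a few CPM imprecise. Groups were taken from the sample records, which do not say that each library is a separate animal beyond calling them replicates, so p-values measure the spread between these samples.

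Each pair of groups was fitted on its own, without covariates, by the quasi-likelihood test of edgeR 4.0.16 (R 4.3.3; glmQLFit, glmQLFTest) after TMM scaling and filterByExpr (min.count 10, min.total.count 15), with Benjamini-Hochberg adjustment over all genes tested. The script was tested on simulated data. Each SE belongs to its fitted log2 fold change. CPM were TMM-normalized over all 19 libraries. Single genes (log2 CPM, prior count 2) and log2 ratios of counts were compared by two-sided exact permutation tests over mice, whose smallest p is 0.000583 for 7 against 7 and 0.00126 for 7 against 5. Alternatives were no filter, at least 10 counts in every library, DESeq2 size factors, library size only, DESeq2 1.42.0, a joint fit of all 3 groups, a block for replicate number, limma-voom (limma 3.58.1) with quality weights, each library left out in turn and close libraries summed. Leaving out AAV-miR-34b/c libraries 1 and 2, the overlap of groups and the share of the genes without TMM, and the chain ratios with their alternatives, were added after seeing the data. The complement genes, the other gene lists, the rule for named genes (every member, with values by mouse or by range for those called, and other complement genes where called) and the motifs were chosen with earlier results of these data known. Symbols and gene positions are from GENCODE M21 (GRCm38), by Ensembl identifier (30934 of 31053 genes). Promoters and miR-34b-5p are from RefSeq (GRCm38.p6), where 24 of the 34 genes had a promoter. *C4a*, *Cfhr3* and 2 further genes of the list of other complement genes are not reported here.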

Additional observations from a re-analysis of the deposited data

Results flagged for a closer look

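In 6 of 102 sets of values (33 complement genes and the total count, in 3 groups each) 1 library lay far from the others of its group. Chance gives about 5.1 for independent sets, which genes of the same libraries are not. The rule looks at the gap to the next library, so a pair of alike libraries, such as AAV-miR-34b/c 1 and 2, is not flagged by it. In log2 CPM these were *C1qa* in AAV-miR-34b/c library 6 (7.11, the next at 6.57), *C1qc* in AAV-miR-34b/c library 2 (6.11, the next at 5.77), *Masp2* in AAV-miR-34b/c library 6 (7.75, the next at 7.44), *C3ar1* in vehicle library 5 (0.88, the next at 2.40, from 3 counts) and *Clu* in vehicle library 3 (10.88, the next at 10.66). The total count was far above its group in AAV-GFP library 5 (4383805, the next at 3239809).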

How the results depend on the processing

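Of 24 calls of complement genes, none changed direction under the alternatives run, and these, together with the fits without AAV-miR-34b/c libraries 1 and 2, gave 528 values, of which 414 stayed past the threshold and 114 did not. The count of complement genes called with AAV-GFP against vehicle (8) was 4 with no filter, 13 with limma-voom, 2 with close libraries summed and 2 to 10 with 1 library left out. That of all genes (1212) was 1374 with no filter (8.37% of those tested), 2687 with limma-voom, 227 with close libraries summed and 689 to 1859 with 1 library left out (728 without vehicle 1, 689 without vehicle 4, 806 without AAV-GFP 3 and 1859 without AAV-GFP 6). With AAV-miR-34b/c against AAV-GFP, the count of complement genes (4) was 8 with DESeq2, 8 with limma-voom, 7 with all 3 groups in one fit, 0 with close libraries summed (edgeR; 9 at an unadjusted p under 0.05), 8 without AAV-miR-34b/c libraries 1 and 2 and 4 to 6 with 1 library left out, and that of all genes (311) was 624 with library size only, 572 with DESeq2, 813 with limma-voom, 87 with close libraries summed, 720 without AAV-miR-34b/c libraries 1 and 2 and 209 to 344 with 1 library left out. With AAV-miR-34b/c against vehicle, the count of complement genes (12) was 3 with close libraries summed and 8 to 13 with 1 library left out, and that of all genes (2037) was 3839 with limma-voom, 331 with close libraries summed, 3878 without AAV-miR-34b/c libraries 1 and 2 and 1267 to 2695 with 1 library left out (1328 without vehicle 1, 1267 without vehicle 4). Summing close libraries leaves fewer samples, and for the other settings the cause was not tested.

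The correlation of same-numbered deviations was between -0.397 and 0.41, which does not settle whether some replicate numbers pair samples. The same number was the best match for AAV-GFP 2 and 3 against vehicle (0.345 and 0.348) and for AAV-miR-34b/c 3 against AAV-GFP (0.268), and for no other library. With the replicate block, 17, 2 and 8 complement genes and 3136, 142 and 945 genes in all were called in the comparisons of AAV-GFP with vehicle, AAV-miR-34b/c with AAV-GFP and AAV-miR-34b/c with vehicle. Without TMM (library size only, chosen after seeing the data), 0 instead of 4 complement genes were free of overlap between the TAA groups, and the median share of the complement genes with AAV-miR-34b/c was 2.11% instead of 2.38%. Depth limits *C5ar1*, *C3ar1*, *Cd93*, *Cd55* and *Itgam*, which had few counts.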
